A study of Mus musculus with 14 samples.

Results

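The genes described here are 6 members of the cytochrome P450 4 (Cyp4) family, Cyp4a14, Cyp4a31, Cyp4f13, Cyp4f14, Cyp4f15 and Cyp4v3, and Aldh3a2, the fatty aldehyde dehydrogenase. They were chosen by symbol, as 7 of the 22180 genes that had a probe set annotated to a single gene symbol. Where a gene had several such probe sets, as Aldh3a2 did with 2, the one with the highest mean over the 14 arrays stood for it. The mice were C57Bl/6J males, and their hepatic RNA was hybridised to Affymetrix whole-transcript arrays. Every mouse, controls included, was put on a 60% high-fat diet (HFD) at 6 weeks of age and ate it for 4 weeks before the arms began. In the arm labelled HFD_CANA (n = 5 arrays) the mice were given canagliflozin, an inhibitor of the renal glucose transporter SGLT2, with the diet for 4 weeks. The sample labels give its dose as 30 mg/kg and the protocol as 25 to 30 mg/kg. In the arm labelled HFD_caloric_restriction (n = 5) food was cut by 15 to 30% so that body weight matched that of the drug arm, and the arm labelled HFD (n = 4) stayed on the diet for the same 4 weeks. The hepatic tissue was measured in bulk, the number of arrays limits the precision, and the labels do not say array by array which mouse was used. P-values therefore measure the spread between these arrays.

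Omega-oxidation starts at the methyl end of a fatty acid. Microsomal CYP4 enzymes put a hydroxyl group there, alcohol and aldehyde dehydrogenases, among them the fatty aldehyde dehydrogenase encoded by Aldh3a2, carry it on to a carboxyl group, and peroxisomes shorten the dicarboxylic acid that results. In mouse liver the nuclear receptor PPARα switches on the Cyp4a genes during fasting and under fibrate drugs, whereas CYP4F enzymes are known for inactivating leukotrienes and other eicosanoids as well as for acting on long-chain fatty acids.

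All values were made with RMA (robust multi-array average) and are read as log2, the base that fits their range, so that 1 unit is a 2-fold difference. They are compared only within a gene. The markers fit the label of the tissue: 7 hepatocyte genes averaged 12.17 to 12.28 on the canagliflozin arrays, 12.23 to 12.28 on the caloric restriction arrays and 12.20 to 12.26 on the HFD control arrays, while 5 genes of the kidney proximal tubule averaged 3.80 to 4.12 over all arrays, near the array medians of 4.07 to 4.13. Markers of macrophages (10 genes) overlapped between all arms, with array means of 6.70 to 7.20 under canagliflozin, 6.27 to 7.07 under restriction and 6.42 to 7.21 in HFD controls. Neutrophil markers (6 genes) lay below the array medians in every arm, at 2.97 to 3.20 under canagliflozin, 2.86 to 3.01 under restriction and 2.87 to 3.08 in HFD controls. All 6 had a higher mean under canagliflozin than under restriction, by 0.00045 to 0.27 log2 units, where 49% of all genes were higher. The part of these markers in the results below was not tested. In bulk tissue, fewer cells of a type and less RNA per cell cannot be told apart.

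Under canagliflozin the values of both Cyp4a genes were higher than in HFD controls, by 3.12 log2 units for Cyp4a14 and 1.92 for Cyp4a31, while the other 5 members lay within 0.16 units of the controls on average. Caloric restriction placed both Cyp4a genes between the drug arm and the controls. With all arrays, none of the 7 members passed the test in any of the 3 comparisons (limma, Benjamini-Hochberg over all 22180 genes, adjusted p under 0.05). The same test called 0% of all genes for canagliflozin against HFD control, where 1444 genes had an unadjusted p under 0.05, 0% for caloric restriction against HFD control, where 872 did, and 0.00451% (1 gene) for canagliflozin against caloric restriction, where 1341 did. The first and second of these comparisons share the same 4 control arrays.

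**Figure D1:**
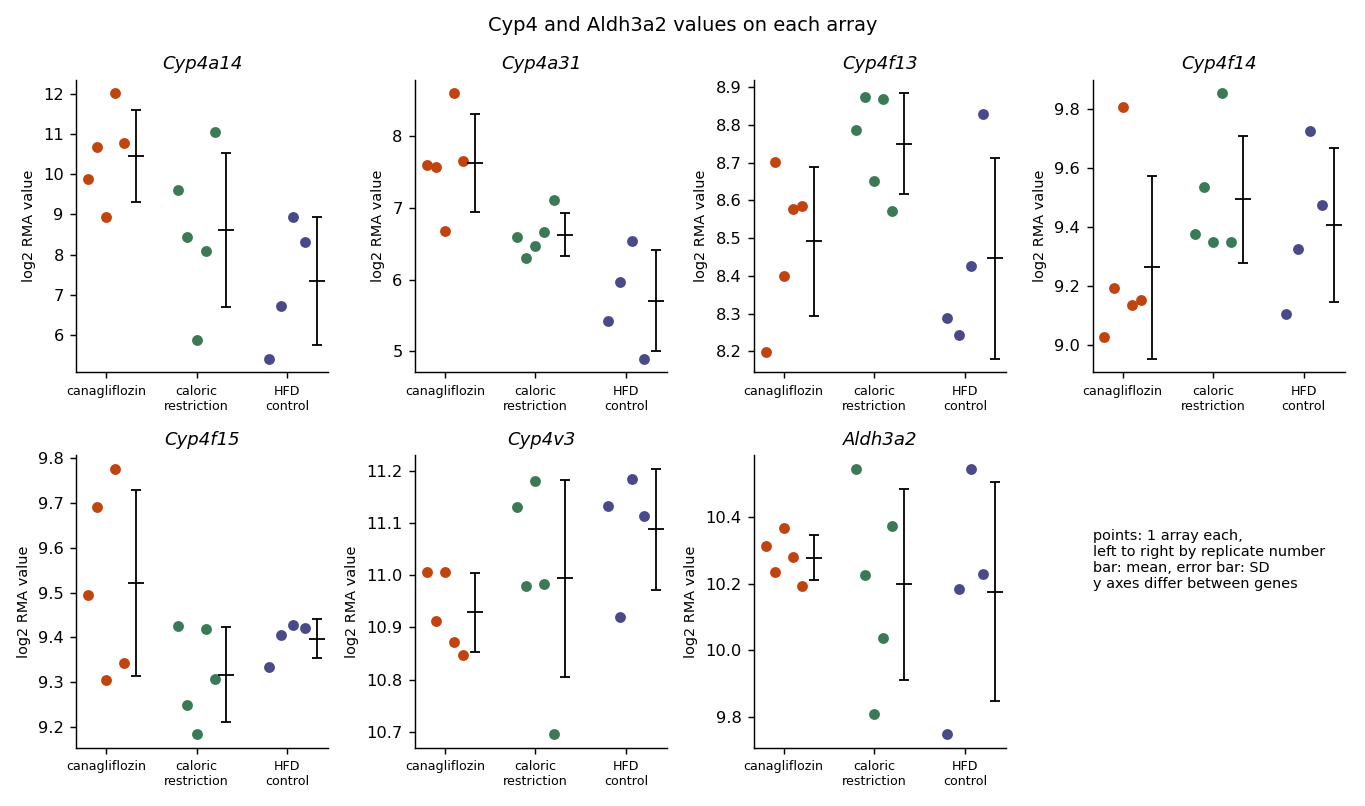
Log2 RMA value of each of the 7 genes on each array, with 1 point per array and the arms on the horizontal axis in the order canagliflozin (n = 5), caloric restriction (n = 5) and HFD control (n = 4); the mean and SD of each arm are drawn beside its points and each panel has its own vertical axis. The canagliflozin values of Cyp4a31 all lie above the controls, those of Cyp4a14 overlap them through 1 canagliflozin array at 8.94, and the other 5 genes overlap between arms.

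Cyp4a14 encodes a hydroxylase of medium-chain fatty acids such as lauric acid and is among the mouse liver genes best known for induction through PPARα. On the canagliflozin arrays, replicates 1 to 5, it measured 9.89, 10.69, 8.94, 12.03 and 10.78. On the caloric restriction arrays 1 to 5 it measured 9.62, 8.43, 5.86, 8.10 and 11.07, and on the HFD control arrays 1 to 4 it measured 5.40, 6.71, 8.94 and 8.31. Thus 4 of 5 canagliflozin arrays were above every control and replicate 3 of that arm was level with the highest control, whereas 2 of 5 restricted arrays were above every control and the other 3 lay among them. The arm means were 10.47 ± 1.15 under canagliflozin, 8.62 ± 1.93 under restriction (SD, n = 5 each) and 7.34 ± 1.60 in HFD controls (SD, n = 4).

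The difference of canagliflozin from HFD control in Cyp4a14 was 3.12 ± 0.85 log2 units (SE), an 8.72-fold difference with a 95% confidence interval of 1.33 to 4.92 log2 units and an adjusted p of 0.559 by limma. An exact permutation test over the arrays, two-sided and unadjusted, gave p = 0.0238, where the smallest value the 126 regroupings allow is 0.00794. Restriction differed from HFD control by 1.27 ± 0.85 (2.42-fold, interval -0.52 to 3.07, limma adjusted p = 0.999). Canagliflozin exceeded restriction by 1.85 ± 0.80 (3.61-fold, interval 0.16 to 3.54, limma adjusted p = 0.807), with 1 of 5 drug arrays above every restricted array and an exact permutation p of 0.103. The spread within arms was wide: the residual SD of Cyp4a14 was 1.59, the second widest of 22180 genes, against a median gene at 0.178.

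Cyp4a31 lies in the same cluster on chromosome 4 and is a close relative of Cyp4a10, which sits between Cyp4a14 and Cyp4a31 in the RefSeq gene order. Its canagliflozin arrays measured 7.61, 7.57, 6.68, 8.60 and 7.66. Its restricted arrays measured 6.59, 6.31, 6.47, 6.66 and 7.11, and its HFD control arrays 5.42, 5.96, 6.54 and 4.90. Every canagliflozin value was above every control value, the narrowest gap being that between 6.68 for drug replicate 3 and 6.54 for control replicate 3, and 3 of 5 restricted arrays were above all controls. Among all genes, 0.987% had every canagliflozin array above every control. The means were 7.62 ± 0.68 under canagliflozin, 6.63 ± 0.30 under restriction (SD, n = 5 each) and 5.71 ± 0.71 in HFD controls (SD, n = 4).

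Cyp4a31 differed between canagliflozin and HFD control by 1.92 ± 0.32 log2 units (3.78-fold, interval 1.25 to 2.59), the second smallest p of 22180 genes by limma at 1.22e-05, with an adjusted p of 0.136. The difference of restriction from HFD control was 0.92 ± 0.32 (1.90-fold, interval 0.25 to 1.59, limma p = 0.00977, adjusted 0.999), with an exact permutation p of 0.0238. Canagliflozin exceeded restriction by 1.00 ± 0.30 (1.99-fold, interval 0.36 to 1.63, limma p = 0.00397, adjusted 0.683), with 4 of 5 drug arrays above all restricted arrays and an exact permutation p of 0.0159.

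Replicate 3 of the canagliflozin arm had the lowest value of that arm for both Cyp4a genes. Without it, Cyp4a31 passed the test for canagliflozin against HFD control, at 2.15 ± 0.29 log2 units (4.45-fold, limma adjusted p = 0.0122), as 1 of 12 genes called, or 0.0541% of all genes. Cyp4a14 did not pass without that array (3.51 ± 0.87, 11.4-fold, limma adjusted p = 0.229). For canagliflozin against caloric restriction without it, Cyp4a31 stood at 1.23 ± 0.28 (2.35-fold, limma adjusted p = 0.193), with 0.0721% of all genes called. That array was left out because of its position in the arm, so its omission is no independent test.

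**Figure D2:**
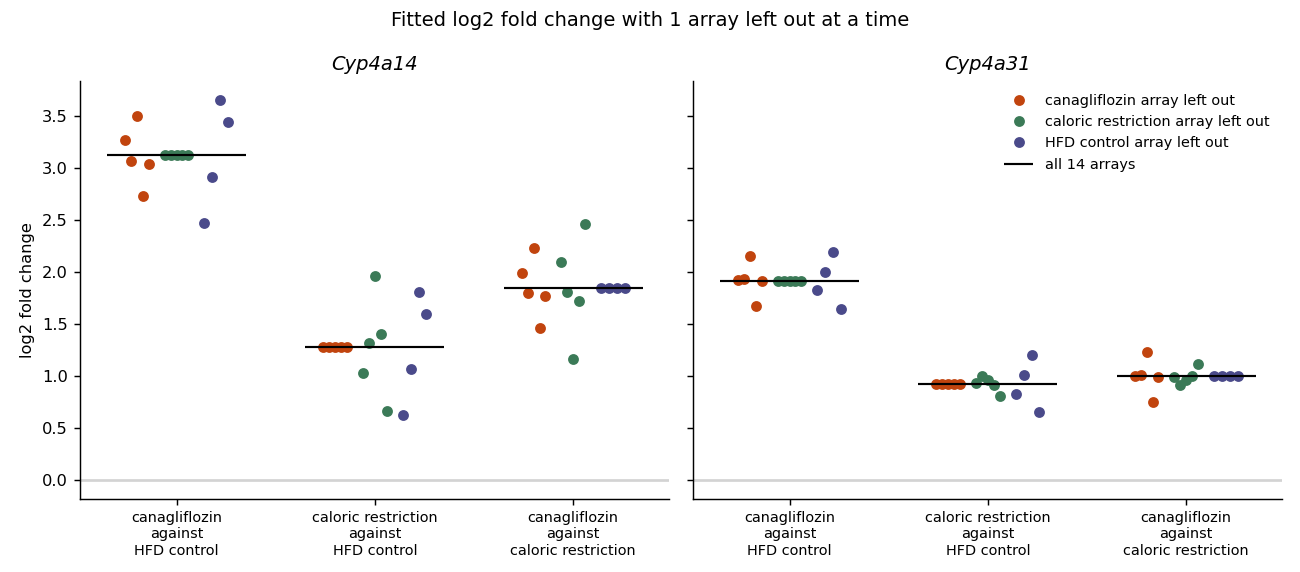
Fitted log2 fold change (vertical axis) of Cyp4a14 and Cyp4a31 with 1 array left out at a time, for the 3 comparisons on the horizontal axis, beside the value from all 14 arrays. For canagliflozin against HFD control Cyp4a14 stays between 2.48 and 3.66 and Cyp4a31 between 1.65 and 2.20, whereas Cyp4a14 under caloric restriction against HFD control moves between 0.63 and 1.96.

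Single arrays set the size of the Cyp4a14 differences more than their direction. Leaving out HFD control replicate 1, the lowest array, gave 2.48 for canagliflozin against HFD control (5.57-fold), and leaving out control replicate 3 gave 3.66 (12.6-fold). For caloric restriction against HFD control the value was 0.63 without control replicate 1, 0.66 without restricted replicate 5 and 1.96 without restricted replicate 3. For canagliflozin against restriction it was 1.16 without restricted replicate 3 and 2.46 without restricted replicate 5. For Cyp4a31 the lowest value in the restriction comparison was 0.65, without control replicate 4. All of these differences stayed positive with any 1 array left out.

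Near-identical Cyp4a copies can share probes, and 2 further probe sets were annotated to several Cyp4a symbols. The probe set of Cyp4a10 and Cyp4a31 measured 10.33, 10.84, 9.28, 11.42 and 10.57 on the canagliflozin arrays, 9.82, 9.19, 7.86, 9.09 and 10.81 on the restricted arrays, and 6.75, 8.84, 9.75 and 8.93 on the HFD control arrays. As for Cyp4a14, 4 of 5 drug arrays were above all controls and drug replicate 3 was not. Its differences were 1.92 for canagliflozin against HFD control (3.79-fold, limma adjusted p = 0.649 over 25335 named probe sets), 0.79 for restriction against HFD control and 1.13 for canagliflozin against restriction. The probe set of Cyp4a32 and Cyp4a10 differed by 1.25 (2.38-fold), 0.20 and 1.05 in the same comparisons. Across the 14 arrays the probe set of Cyp4a10 and Cyp4a31 correlated with Cyp4a14 at r = 0.972 and with Cyp4a31, whose symbol it carries, at r = 0.805. The probe set of Cyp4a32 and Cyp4a10 correlated with Cyp4a14 at r = 0.769 and with Cyp4a31 at r = 0.834. These r include the differences between arms. For deviations from the arm means, r with Cyp4a14 and Cyp4a31 was 0.951 and 0.640 for the probe set of Cyp4a10 and Cyp4a31. It was 0.613 and 0.762 for that of Cyp4a32 and Cyp4a10. How specific the Cyp4a31 probe set is to that copy was not tested, since probe sequences were not used here, and its value is given as uncertain for that reason.

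**Figure D3:**
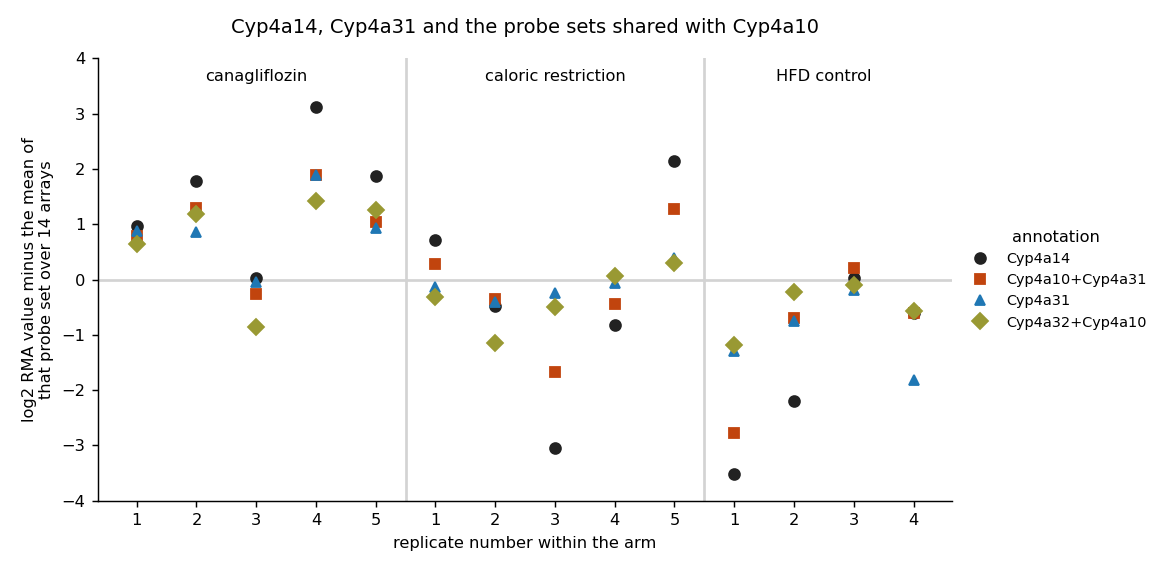
Log2 RMA value minus the mean of the same probe set over 14 arrays (vertical axis) for Cyp4a14, Cyp4a31 and the 2 probe sets shared with Cyp4a10, with 1 point per array and replicate numbers within each arm on the horizontal axis. The 4 probe sets are low together on canagliflozin replicate 3 relative to the rest of that arm, and the annotation that names Cyp4a10 and Cyp4a31 tracks Cyp4a14 with r = 0.972.

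Cyp4a14 and Cyp4a31 correlated across 14 arrays at r = 0.778 (permutation p = 0.001, adjusted 0.021 over the 21 pairs of members) and rho = 0.842 (permutation p = 0.00035, adjusted 0.00735). After the 2 arrays farthest from the Cyp4a14 median were left out, r was 0.631, and for deviations from the arm means it was 0.545. The permutations moved arrays between arms, so these p-values include the differences between arms that both genes share, and the value for deviations carries no test. Cyp4a14 against Aldh3a2 gave r = 0.670 (permutation p = 0.00867, adjusted 0.091) and rho = 0.653 (permutation p = 0.0134, adjusted 0.126), with 0.587 after the same omission and 0.742 for deviations from the arm means. That pair did not pass adjustment, and on the canagliflozin arrays replicate 3, the lowest in Cyp4a14, was the highest in Aldh3a2.

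The 3 Cyp4f members lie on chromosome 17, where Cyp4f14 and Cyp4f13 are direct neighbours and 4 zinc finger genes separate Cyp4f14 from Cyp4f15. Their promoter windows, 250 bases before to 50 after the annotated start, from RefSeq on GRCm38.p6, are printed because the 3 neighbouring genes share short runs near the start, while their mean differences between canagliflozin and restriction had different signs. Capitals mark GGATTGG and AGGTGCC, runs of 7 bases that were picked after the sequences were seen because they stand at nearly the same place in all 3 windows. The windows are Cyp4f15 at chr17:32685409-32685708 on the plus strand, Cyp4f14 at chr17:32917280-32917579 on the minus strand (1 of 4 annotated starts, the one closest to the other genes in sequence) and Cyp4f13 at chr17:32947312-32947611 on the minus strand.
Cyp4f15: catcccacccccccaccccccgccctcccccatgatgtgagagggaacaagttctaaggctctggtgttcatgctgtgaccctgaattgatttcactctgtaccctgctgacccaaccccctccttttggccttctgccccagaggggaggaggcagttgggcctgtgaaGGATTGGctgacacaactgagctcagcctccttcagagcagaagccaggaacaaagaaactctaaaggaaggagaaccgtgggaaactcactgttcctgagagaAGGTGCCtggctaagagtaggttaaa
Cyp4f14: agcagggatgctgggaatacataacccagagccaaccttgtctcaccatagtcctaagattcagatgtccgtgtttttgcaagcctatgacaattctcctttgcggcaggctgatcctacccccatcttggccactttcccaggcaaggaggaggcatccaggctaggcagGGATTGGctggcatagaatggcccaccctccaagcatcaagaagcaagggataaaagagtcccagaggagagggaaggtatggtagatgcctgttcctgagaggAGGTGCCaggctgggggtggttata
Cyp4f13: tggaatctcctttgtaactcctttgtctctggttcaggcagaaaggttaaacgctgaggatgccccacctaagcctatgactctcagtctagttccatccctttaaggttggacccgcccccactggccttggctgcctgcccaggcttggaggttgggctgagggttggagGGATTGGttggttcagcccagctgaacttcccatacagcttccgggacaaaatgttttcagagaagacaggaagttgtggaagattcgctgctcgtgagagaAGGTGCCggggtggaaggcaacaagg

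GGATTGG began 80, 79 and 78 bases before the start of Cyp4f15, Cyp4f14 and Cyp4f13, and was present on the gene strand of 2.58% of all 32851 windows. AGGTGCC began 25, 26 and 25 bases after it, and was present in 2.05%. The match in place follows from the choice of these runs and of the Cyp4f14 start, so it is no separate result. CTCCTTT and TTGGCTG, also shared by all 3 windows, did not stand at the same place in all 3. Aligned over their length, the windows of Cyp4f14 and Cyp4f15 were 55.8% identical, those of Cyp4f13 and Cyp4f14 54.8% and those of Cyp4f13 and Cyp4f15 53.3%. In the 8 windows found for 5 of the 7 members (also Cyp4v3 and Aldh3a2), 4 motifs were searched: AGGTCA, the half-site of nuclear receptors, a direct repeat of AGGTCA with 1 base between the copies, and a looser repeat of AGGNNA and AGNNCA with 1 base between, which includes the exact one, on both strands, and TATAAA on the gene strand. They occur in 16.3%, 0.0396%, 2.32% and 8.32% of all windows and in 0 of the 8, which says only that these letters are not in these windows. Cyp4a14 and Cyp4a31 had no entry.

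The Cyp4f genes differed little from the controls under canagliflozin, and Cyp4f13 and Cyp4f14 lay lower under the drug than under restriction while Cyp4f15 lay higher. Cyp4f13 measured 8.20, 8.70, 8.40, 8.58 and 8.59 under canagliflozin, 8.79, 8.87, 8.65, 8.87 and 8.57 under restriction, and 8.29, 8.24, 8.43 and 8.83 in HFD controls. The restricted arrays were mostly high, 2 of them above every control, and the arms overlapped in each comparison. Its difference was 0.05 ± 0.13 for canagliflozin against HFD control, 0.30 ± 0.13 for restriction against HFD control (1.23-fold, limma adjusted p = 0.999) and -0.26 ± 0.12 for canagliflozin against restriction (limma adjusted p = 0.821).

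Cyp4f14, in mice also the main hydroxylase of vitamin E, measured 9.03, 9.19, 9.80, 9.13 and 9.15 under canagliflozin, 9.38, 9.53, 9.35, 9.85 and 9.35 under restriction, and 9.10, 9.32, 9.72 and 9.47 in HFD controls. Drug replicate 3 was the highest of its arm here, and the other 4 drug arrays were below every restricted array. Canagliflozin differed from HFD control by -0.14 ± 0.16, restriction from HFD control by 0.09 ± 0.16 and canagliflozin from restriction by -0.23 ± 0.15 (limma adjusted p = 0.861). Without drug replicate 3 the last value was -0.37 ± 0.13 (limma adjusted p = 0.543).

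Cyp4f15 measured 9.49, 9.69, 9.31, 9.78 and 9.34 under canagliflozin, 9.42, 9.25, 9.18, 9.42 and 9.31 under restriction, and 9.33, 9.41, 9.43 and 9.42 in HFD controls. Drug replicates 1, 2 and 4 were above every array of both other arms, and the controls lay close together with an SD of 0.04. The differences were 0.12 ± 0.10, -0.08 ± 0.10 and 0.21 ± 0.10 for canagliflozin against HFD control, restriction against HFD control and canagliflozin against restriction (limma adjusted p = 0.883, 0.999 and 0.821).

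Cyp4v3 is the mouse counterpart of human CYP4V2, a fatty acid hydroxylase whose loss causes Bietti crystalline dystrophy of the retina. It measured 11.01, 10.91, 11.01, 10.87 and 10.85 under canagliflozin, 11.13, 10.98, 11.18, 10.98 and 10.69 under restriction, and 11.13, 10.92, 11.18 and 11.11 in HFD controls. Of the drug arrays, 3 were below every control, and the restricted arrays overlapped both other arms. Canagliflozin differed from HFD control by -0.16 ± 0.10 (interval -0.37 to 0.06, limma adjusted p = 0.829), with an exact permutation p of 0.0476, restriction from HFD control by -0.09 ± 0.10 and canagliflozin from restriction by -0.07 ± 0.10. A further probe set annotated to both Klkb1, the neighbouring plasma prekallikrein gene, and Cyp4v3 gave -0.07, -0.05 and -0.01.

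Aldh3a2 encodes the enzyme that oxidises long-chain fatty aldehydes to acids, and loss of the human gene causes Sjögren-Larsson syndrome. It measured 10.31, 10.24, 10.37, 10.28 and 10.19 under canagliflozin, 10.55, 10.23, 9.81, 10.04 and 10.37 under restriction, and 9.75, 10.18, 10.55 and 10.23 in HFD controls. The 5 drug arrays lay within the range of both other arms, with an SD of 0.07 against 0.29 under restriction and 0.33 in controls. The differences were 0.10 ± 0.15 for canagliflozin against HFD control (interval -0.21 to 0.42), 0.02 ± 0.15 for restriction against HFD control (interval -0.29 to 0.34) and 0.08 ± 0.14 for canagliflozin against restriction (interval -0.22 to 0.38). These intervals do not show that the arms are alike. Its dimmer probe set gave 0.09, 0.04 and 0.05.

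**Figure D4:**
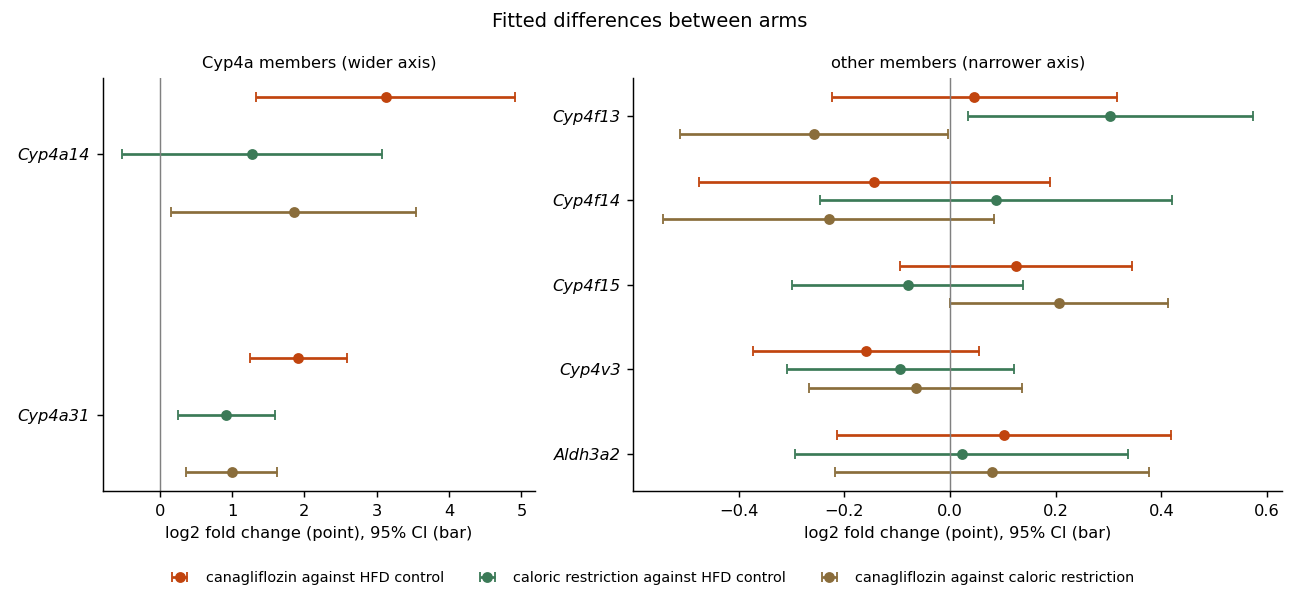
Fitted log2 differences (horizontal axis, points) with 95% confidence intervals (lines) of the 7 genes for canagliflozin against HFD control, caloric restriction against HFD control and canagliflozin against caloric restriction, with the 2 Cyp4a genes on a wider axis than the other 5. The interval of Cyp4a14 for canagliflozin against HFD control runs from 1.33 to 4.92 and that of Aldh3a2 from -0.21 to 0.42.

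Over the 7 members, the median difference was 0.10 for canagliflozin against HFD control, 0.09 for restriction against HFD control and 0.08 for canagliflozin against restriction, and over all genes it was within 0.01 of 0 in each. Of the 7, 5, 5 and 4 had a higher mean in the first-named arm of these comparisons, against 49.7%, 50.5% and 49% of all genes. At an unadjusted limma p under 0.05, 2 members (both Cyp4a genes) were higher under canagliflozin than in HFD controls, where 3.21% of all genes were. Under restriction Cyp4a31 and Cyp4f13 were higher than in HFD controls at that p, where 2.06% of all genes were. Against restriction, both Cyp4a genes were higher and Cyp4f13 lower under canagliflozin at that p, where 3.07% and 2.98% of all genes were.

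Of the 12 other measured Cyp4 genes, 7 had a mean below every array median (4.07 at the lowest), and no differences are given for them: Cyp4a29, Cyp4a30b, Cyp4f16, Cyp4f18, Cyp4f37, Cyp4f39 and Cyp4f40. None of the 12 passed the test in limma, and 0, 0 and 1 had an unadjusted p under 0.05 in the 3 comparisons, the last being Cyp4f16. Of all genes, 6.51%, 3.93% and 6.05% had such a p. Of the 5 brighter genes, 2 had a higher mean under canagliflozin than in HFD controls, 3 under restriction than in HFD controls and 4 under canagliflozin than under restriction. The male-typical Cyp4a12a and Cyp4a12b, omega-hydroxylases of the same chromosomal cluster, differed by -0.11 and -0.19 for canagliflozin against HFD control and by -0.39 and -0.26 for restriction against HFD control. Cyp4f17 differed by 0.22 ± 0.16 for canagliflozin against HFD control.

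Electrons reach microsomal P450 enzymes partly through cytochrome b5 and its reductase. Of 4 listed donors, the P450 reductase gene Por had no probe set of its own symbol and was not analysed. Of the 3 measured donors, 1 had a higher mean under canagliflozin than in HFD controls, and none passed the test. Cyb5r3, the reductase, averaged 11.48 ± 0.18 under canagliflozin and 11.77 ± 0.08 under restriction (SD, n = 5 each) and 11.44 ± 0.35 in HFD controls (n = 4). Every drug array was below every restricted array in Cyb5r3, as in 0.929% of all genes in either direction, with a difference of -0.29 ± 0.13 (limma adjusted p = 0.81). Cyb5b, the form of the outer mitochondrial membrane, differed by -0.34 ± 0.20 for canagliflozin against HFD control and -0.41 ± 0.18 for canagliflozin against restriction, and Cyb5a by -0.05 ± 0.10 against HFD control.

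Of 12 further alcohol and aldehyde dehydrogenases, which can act after the Cyp4 enzymes, 3 had a higher mean under canagliflozin than in HFD controls, 6 under restriction than in HFD controls and 4 under canagliflozin than under restriction, with medians of -0.06, -0.01 and -0.09. None passed the test in limma, and 0, 1 and 0 had an unadjusted p under 0.05, against 6.51%, 3.93% and 6.05% of all genes. Adh4 differed by -0.26 ± 0.14, Adh5 by -0.11 ± 0.10 and Aldh3b1 by 0.18 ± 0.10 for canagliflozin against HFD control. Aldh3a1, 1 of the 12, lay below every array median on average. Among 10 genes for the peroxisomal oxidation of dicarboxylic acids, 8 had a higher mean under canagliflozin than in HFD controls (median 0.25), 7 under restriction than in HFD controls (median 0.08) and 9 under canagliflozin than under restriction (median 0.14). None passed the test, and 2, 0 and 1 had an unadjusted limma p under 0.05, against 6.51%, 3.93% and 6.05% of all genes in either direction. Ehhadh, the bifunctional enzyme of that pathway, averaged 9.67 ± 0.25 under canagliflozin, 9.46 ± 0.13 under restriction and 9.35 ± 0.15 in HFD controls, and the drug arm differed from the controls by 0.32 ± 0.12 (limma adjusted p = 0.683). Acaa1a, a peroxisomal thiolase, differed by 0.31 ± 0.14, and the carnitine acyltransferases Crot and Crat by 0.20 ± 0.12 and 0.39 ± 0.25.

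Of 19 measured genes for PPARα and its other targets, 15 had a higher mean under canagliflozin than in HFD controls (median 0.26, 8 of them with an unadjusted limma p under 0.05, against the 3.21% of all genes given above), 12 under restriction than in HFD controls (median 0.04, 0 at that p) and 18 under canagliflozin than under restriction (median 0.29, 6 at that p). None of the 19 passed the test. Of all genes, 2.06% were higher at that p under restriction than in HFD controls, and 3.07% under canagliflozin than under restriction. Ppargc1a, the coactivator, averaged 7.57 ± 0.73 under canagliflozin, 6.71 ± 0.43 under restriction and 6.43 ± 0.24 in HFD controls, a difference of 1.14 ± 0.29 between drug and control (limma adjusted p = 0.559). Slc22a5, the carnitine importer, differed by 0.66 ± 0.22 in that comparison. Ppara itself averaged 9.25 ± 0.17 under canagliflozin, 9.25 ± 0.27 under restriction and 9.31 ± 0.17 in HFD controls.

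The genes whose pattern over the 14 arrays was most like each member were found among 8767 others with a mean of at least 5. Cyp4a14 was followed most closely by Acot1, which encodes a thioesterase of acyl-CoA in the cytosol (r = 0.956), and Retsat, a retinol saturase (r = 0.938), and for deviations from the arm means r was 0.957 and 0.913. Acot1 averaged 7.17 ± 0.32 under canagliflozin, 6.36 ± 0.54 under restriction and 6.22 ± 0.48 in HFD controls. Every drug array was above every control, as in 0.987% of all genes, with a difference of 0.95 ± 0.25 (limma adjusted p = 0.559). Acot1 was picked by its likeness to Cyp4a14 over these same arrays, so its difference between arms is no separate result. Retsat differed by 0.42 ± 0.14 in that comparison. For Cyp4a31 the most alike were Ctcflos (0.863) and Rasgef1b (0.860), for Cyp4f13 Itih2 (0.879) and Vps33b (0.879), and for Cyp4f14 Car3, a carbonic anhydrase (0.911), and Acly, the ATP citrate lyase (0.877). For Cyp4f15 they were Cpt2, a mitochondrial carnitine palmitoyltransferase (0.903), and Cth, cystathionine gamma-lyase (0.852). By ranks the likeness to Cth was weaker, with rho = 0.530 against 0.934 for Cpt2. Cyp4v3 was followed by Fads6 (0.869) and Pdhb (0.864), and Aldh3a2 by Hsd17b10 (0.870) and Arhgef3 (0.861). For deviations from the arm means, r was 0.699 for Rasgef1b. It was 0.843 (Vps33b) to 0.929 (Car3) for the other genes named for members besides Cyp4a14. These points share arrays and normalization and are given as a description.

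**Figure D5:**
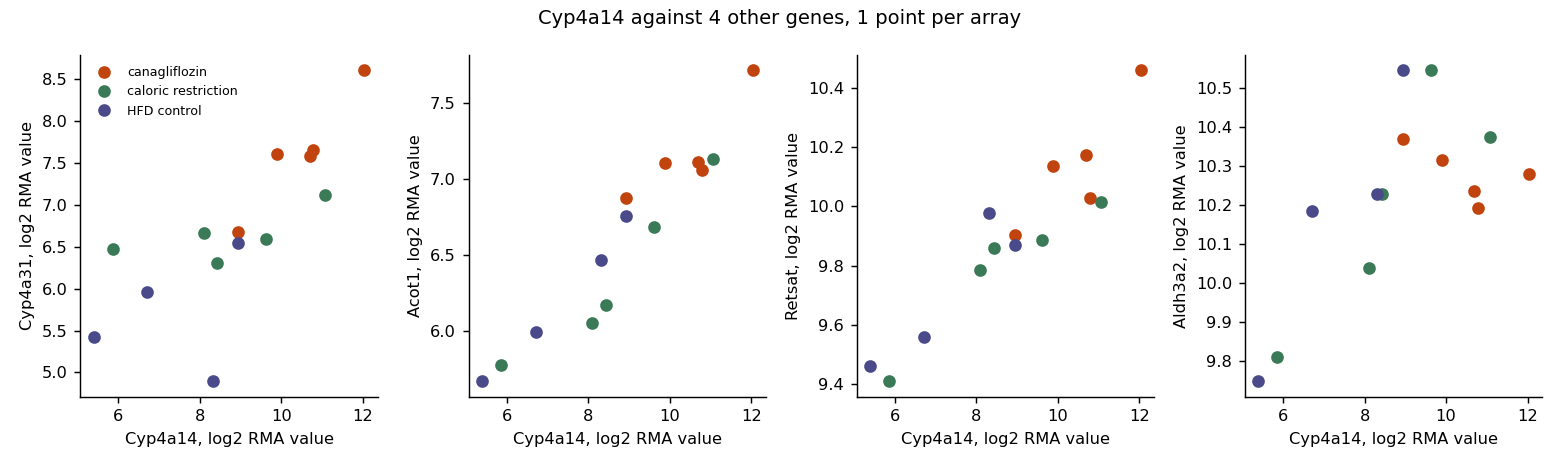
Log2 RMA value of Cyp4a14 (horizontal axis) against Cyp4a31, Acot1, Retsat and Aldh3a2 (vertical axes), with 1 point per array coloured by arm in the order canagliflozin, caloric restriction and HFD control. Acot1 follows Cyp4a14 across arrays of all arms with r = 0.956 over 14 arrays.

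Seen over the whole PPARα list, 15 of 19 genes correlated with Cyp4a14 at r over 0.5 (median 0.78), against 5.41% of all other genes, and 16 of 19 (median 0.75, against 6.64%) did so for deviations from the arm means. For Cyp4f15 the counts were 14 of 19 (median 0.60, against 4.68%) and, for deviations, 12 of 19 (median 0.56, against 5.69%). Cyp4a31 had 12 of 19 (median 0.55, against 4.71%), and for deviations 9 of 19 (median 0.47, against 5.05%). Aldh3a2 had 8 of 19 by both measures, with a median of 0.43 (against 3.64%) and, for deviations, 0.40 (against 5.32%). On the peroxisomal list Aldh3a2 had 6 of 10 (median 0.53) and, for deviations, 7 of 10 (median 0.56). Cyp4a31 had 5 of 10 there (median 0.52, deviations 4 of 10), Cyp4f15 5 of 10 (median 0.46, deviations 2 of 10) and Cyp4a14 4 of 10 (median 0.48, deviations 5 of 10). Cyp4f14 had 1 of 10 on that list by both measures, and Cyp4f13 and Cyp4v3 had 0. Cyp4v3 had 1 of 19 PPARα genes (against 4.32%) with a median of -0.45, which was -0.33 for deviations. Cyp4f14 had 0 of 19 (against 6.05%) with a median of -0.22, which was -0.06 for deviations. Cyp4f13 had 0 of 19 (median 0.12, against 5.04%), and for deviations 1 of 19 (median 0.32, against 6.17%). These counts describe the 14 arrays and were not tested.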

How the data were processed

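Liver total RNA was labelled from 250 ng with the WT Plus Affymetrix protocol, per the labels' protocols. The authors deposited 1 value per probe set and array. The submitters' processing notes name RMA and Affymetrix Expression Console (version and genome build: not given in the sources used here), and the range of the deposited values is that of a log2 scale, although the sources name no log base. RMA equalises the distributions of arrays, so a global change in RNA content would not be seen.

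The platform annotation pairs 23521 of the 41345 probe sets with a single symbol, 1814 with several and 16010 with none, and 23328 of those with a single symbol matched a RefSeq gene table. One value per gene (the brightest probe set, for 1082 genes with several) gave 22180 genes, tested without a filter. Groups came from the sample titles. limma 3.58.1 (lmFit and eBayes, R 4.3.3) estimated the arm means from the 14 arrays together, with p-values adjusted by Benjamini-Hochberg per comparison, with a threshold of 0.05. Errors are SE for differences and SD for means. Exact permutation tests between arms went through all regroupings in R. Permutation tests of correlations used 100000 resamples in Python 3.11.15, with ranks and adjustment from scipy 1.17.1. Alignments used Biopython 1.88. The test was tried on 10 simulations of canagliflozin against HFD control, with 200 changed genes of 22180. It found 95.5% of 2-fold and 66.5% of 1.5-fold changes, and a mean of 8.1 unchanged genes passed by mistake. The simulated noise was independent between genes. These rates pool the changed genes, rest on the 200 planted changes and do not hold for genes with a wide spread. In the data, 0.126% of genes differed by more than 1 log2 unit between canagliflozin and HFD control, and 0 genes were called. The rates are therefore not those of these data. The residual SD was 1.59 for Cyp4a14 and 0.582 for Cyp4a31, against 0.178 for the median gene. With all arrays, neither was called in that comparison, at 8.72-fold and 3.78-fold.

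Other settings were filters at a mean of 5 or 6, median centring, cyclic loess, array weights, a trended and robust variance, only the arms compared, the replicate block, array position, averaging probe sets of 1 gene, other probe sets and leaving out each array. Named genes were the members, up to 4 genes of each pathway list with the smallest p for canagliflozin against HFD control, and the 2 genes most like each member. Cyp4a12a, Cyp4a12b and Ppara were named outside that rule, after their values were seen. The members and lists were chosen with earlier results of these data known. List genes without a probe set of their own symbol were not analysed here.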

Additional observations from a re-analysis of the deposited data

Results flagged for a closer look

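Cyp4f14 in canagliflozin replicate 3 lay apart from its arm: it measured 9.80, against 9.03 to 9.19 on the other 4 canagliflozin arrays, and its gap to the nearest of them was 0.786 of the range of the arm. It was the only 1 of 21 groups of arrays, 7 genes in 3 arms, to exceed the 95% limit of Dixon's test, which chance exceeds in about 1 of 20 groups. The same array had the lowest value of its arm for Cyp4a14 (8.94), Cyp4a31 (6.68) and Cyp4f15 (9.31).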

How the results depend on the processing

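Of 504 member values under other settings, 1 passed the test (Cyp4a31 without canagliflozin replicate 3) and 10 had the other sign, all with 1 array left out and none called. The other probe sets are not among these 504 values. With 1 array left out, the log2 difference ranged from -0.023 to 0.17 for Cyp4f13 and from -0.041 to 0.23 for Aldh3a2 (canagliflozin against HFD control), from -0.014 to 0.19 for Cyp4f14 and from -0.12 to 0.15 for Aldh3a2 (restriction against HFD control), and from -0.018 to 0.17 for Aldh3a2 (canagliflozin against restriction). Over all genes, canagliflozin against HFD control called 0 genes, but 1 with a filter at a mean of 5, 1 at 6, 1 with array position as a covariate and 0 to 12 with 1 array left out, when 0 to 1 members were called. Restriction against HFD control called 0, or 1 with array position. Canagliflozin against restriction called 1 gene, but 0 with a filter at 6, 0 with only the arms compared, 2 with the replicate number as a block and 0 to 16 with 1 array left out. Same-numbered arrays deviated together with r from -0.09 to 0.20 in 13 pairs, 3 of them over 0.1. Of these pairs, 7 matched their own number best among the 4 or 5 arrays of the other arm, a count that was not tested. It does not settle whether same-numbered arrays belong together. The labels name no pairs, so the main fit took none, and the replicate block is given as an alternative. With the replicate block, Cyp4a14 differed by 2.78 and Cyp4a31 by 1.85 between canagliflozin and HFD control. The causes of these shifts were not tested. Without canagliflozin replicate 3, a setting chosen after seeing the data, 16 of 19 PPARα genes, 7 of 10 peroxisomal genes and 4 of 12 dehydrogenases were higher under canagliflozin than in HFD controls, and 0 of these passed the test. Probes shared between Cyp4a copies limit the values of Cyp4a31.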
